A study of Mus musculus with 10 samples.

Results

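The genes described here are 10 genes of the 2-cell-like state of mouse embryonic stem cells (ESCs): Zscan4a, Zscan4b, Zscan4c, Zscan4d, Zscan4e, Zscan4f, Zfp352, Tcstv1, Tcstv3 and Dppa2. They were chosen by name, by matching Ensembl gene identifiers to these symbols, and make up 10 of the 20206 genes listed. All 10 matched 1 row each, and no row had the same values as another. The RNA came from 10 wild-type C57BL/6 ESC lines, labelled male, each derived from a blastocyst of a different mother. Mothers of 5 lines (LPD 1, 4, 6, 20 and 40) ate a low protein diet with 9% casein and mothers of the other 5 (NPD 8, 15, 21, 36 and 51) a normal protein diet with 18% casein, matched in energy, until embryonic day 3.5. Every line was derived on mouse embryonic fibroblasts with knockout serum replacement and leukaemia inhibitory factor, and per the study's methods was moved to culture without feeders before RNA was taken. The diet acted on the mother, and each line stands for 1 embryo of that mother.

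In the mouse, the embryo switches on its own genome at the 2-cell stage, and a short-lived set of genes is transcribed at that time. In ESC cultures a small and changing minority of cells passes through a state in which the same set is switched on again. Zscan4 proteins, with a SCAN domain and zinc fingers, mark this state and are known for telomere lengthening and genome stability. The homeobox factor Dux acts upstream of them, and Dppa2, together with its partner Dppa4, is known to act upstream of Dux. In RNA from whole cultures, fewer cells in the state and less RNA per cell cannot be told apart.

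Values are DESeq2-normalized estimated counts, in which 1 read was worth 0.726 to 2.88 units depending on the line. This was read from genes with 1 annotated transcript, of whose low values 91.3% to 99.8% were whole multiples of 1 step within a tolerance of 0.15 of that step, and it gave the depth of each line as read equivalents. By this measure the NPD lines held 20370682 to 23187333 read equivalents. LPD 1 held 21872538 and LPD 20 held 24193841, whereas LPD 40 held 11250921, LPD 6 held 12349703 and LPD 4 held 5842833. Of the members, Tcstv3 rested on as few as 1.99 read equivalents in 1 line and Zfp352 on as few as 2.69, while the summed Zscan4 copies rested on 411 to 3677.

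Some lines stood apart before any diet comparison. The Y-linked gene Ddx3y had a value of 7.70 in NPD 15 and 174 in LPD 4, against 1110 to 1493 in the remaining 8 lines. The 334 X-linked genes with a mean of at least 100 lay at a median of 0.49 on the log2 scale above their own medians in NPD 15, and between −0.06 and 0.03 in the other 9. The low Ddx3y and raised X-linked values of NPD 15 are at odds with its label as male. The reason was not tested, and all lines were used as labelled. Values without NPD 15 are therefore given for the Zscan4 sum, for the medians of the members and of the companion genes, and for the r of named genes and markers with the Zscan4 sum. As a check of cell type, the pluripotency factors Pou5f1 (18250 to 30420), Nanog (5141 to 11571) and Sox2 (7481 to 10969) were high in all 10 lines, and the 14 pluripotency factors listed summed to between 110224 and 149646.

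The Zscan4 copies lie together on chromosome 7 (GRCm38), from Zscan4a at chr7:10794242-10799057 through Zscan4b at chr7:10900740-10905050, Zscan4c at chr7:11005745-11010547, Zscan4d at chr7:11161374-11166159 and Zscan4e at chr7:11306378-11310682 to Zscan4f at chr7:11397915-11402318. Zscan4c and Zscan4f are on the plus strand and the other 4 on the minus strand. GENCODE M21 gives Zscan4a as an unprocessed pseudogene and the other 5 as protein coding. The copies share much of their transcribed sequence. Of the 31-base words in its annotated transcripts, 95.2% were shared with another gene for Zscan4b, 93.7% for Zscan4e, 91.7% for Zscan4f, 91.5% for Zscan4c, 76.7% for Zscan4a and 65.0% for Zscan4d. How the quantifier divided reads among the copies was not tested, so the level of a single copy is uncertain and the sum of the 6 copies is read first. The sum does not hold every related row, since Zscan4-ps1, Zscan4-ps2 and Zscan4-ps3 on chromosome 7 are outside it. Zscan4-ps2, with values from 41.0 in NPD 15 to 435 in LPD 20, shared 81.6% of the words of Zscan4c and 82.9% of those of Zscan4f. Reads may therefore also be divided between the sum and these rows.

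The summed Zscan4 copies varied widely between lines and did not follow the diet. Their normalized estimated counts were 1119 in LPD 1, 1646 in LPD 4, 596 in LPD 6, 2615 in LPD 20 and 1816 in LPD 40. In the NPD lines they were 787 in NPD 8, 311 in NPD 15, 1664 in NPD 21, 2670 in NPD 36 and 2515 in NPD 51. NPD 15, LPD 6 and NPD 8 were the lowest lines, NPD 36, LPD 20 and NPD 51 the highest, and the range of the LPD lines lay within that of the NPD lines. The highest line was 8.57 times the lowest. Means were 1558 ± 760 in LPD and 1589 ± 1038 in NPD (SD, n = 5 each). On the log2(value + 1) scale the LPD lines were higher by 0.19 (SE 0.55), with a limma 95% interval of −1.01 to 1.38 and p = 0.825 in a two-sided exact permutation test over all assignments of 5 and 5 lines. The smallest p this design allows is 0.00794. Without NPD 15 the difference was −0.31 (exact permutation p = 0.579), without LPD 20 it was −0.04 (exact permutation p = 0.960), and without LPD 6 it was 0.49 (exact permutation p = 0.556), so its direction rested on single lines. With this spread between lines the interval lies on both sides of 0, so a difference in either direction within it is not excluded.

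**Figure D1:**
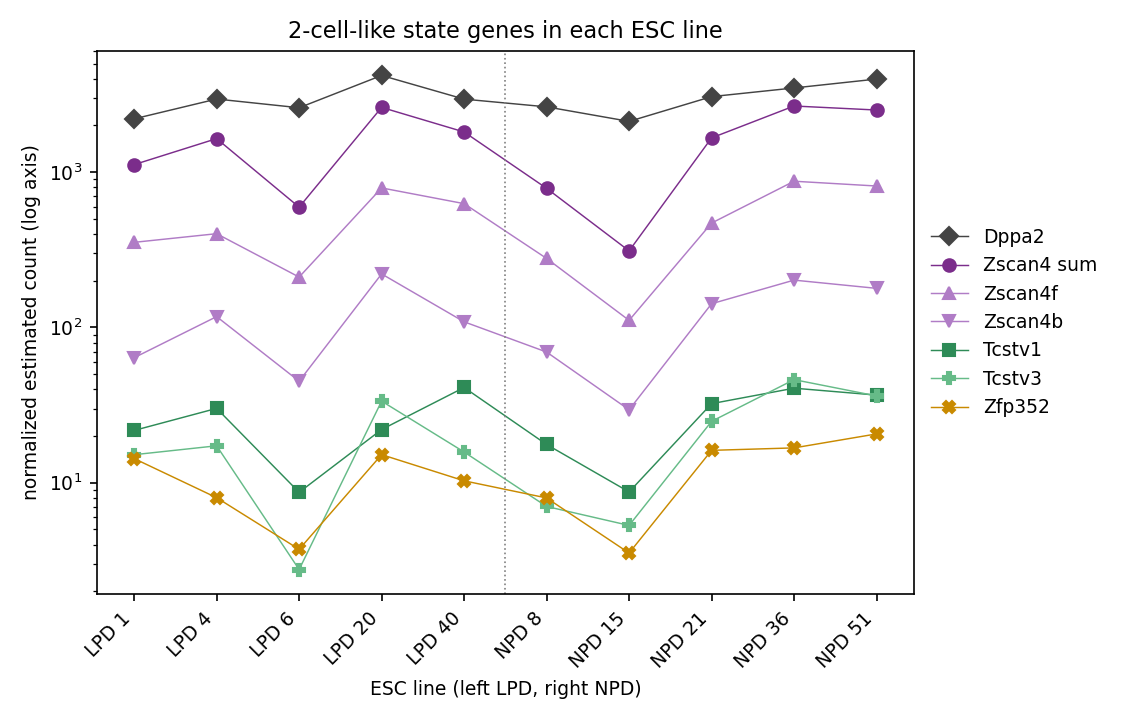
Normalized estimated counts (log axis) of Dppa2, the Zscan4 sum, Zscan4f, Zscan4b, Tcstv1, Tcstv3 and Zfp352 in each of the 10 ESC lines, LPD left and NPD right of the dotted line; joining lines only guide the eye. The Zscan4 sum runs from 311 in NPD 15 to 2670 in NPD 36, and for every gene shown LPD 6 and NPD 15 are among the 3 lowest lines.

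The separate copies repeated the pattern of their sum. Zscan4f, the copy with the highest listed values, had 353, 402, 211, 792 and 627 in LPD 1, 4, 6, 20 and 40 and 278, 111, 470, 875 and 815 in NPD 8, 15, 21, 36 and 51. Zscan4c, the copy most often used as a reporter of the state, had values of 216, 385, 97.4, 556 and 372 in the LPD lines and 186, 65.3, 421, 564 and 512 in the NPD lines, in the same order. In both genes the diets overlapped over nearly the whole range. Zscan4e ranged from 46.3 to 462, Zscan4a from 26.6 to 311, Zscan4d from 32.6 to 295 and Zscan4b from 29.5 to 221, each lowest in NPD 15. Between the 15 pairs of copies, Pearson's r of the log2 values over the 10 lines ran from 0.939 to 0.994, a description of rows that share reads. The share of each copy in the sum ran, over the 10 lines, from 24.4% to 35.7% for Zscan4f, 16.4% to 25.3% for Zscan4c, 14.0% to 20.8% for Zscan4e, 8.53% to 14.1% for Zscan4a, 8.79% to 11.8% for Zscan4d and 5.71% to 9.47% for Zscan4b.

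Levels of different genes were compared per kb of the longest annotated transcript. On this scale Zscan4f averaged 270 ± 148, Zscan4e 160 ± 87.2, Zscan4c 148 ± 81.4, Zscan4a 79.8 ± 45, Zscan4d 72.3 ± 41.9 and Zscan4b 66.2 ± 37.7 normalized estimated counts per kb (SD over 10 lines). Zscan4f was above Zscan4e in 10 of 10 lines and Zscan4c above Zscan4a in 10 of 10. The order of the other neighbours was not uniform, with Zscan4e above Zscan4c in 7 lines, Zscan4a above Zscan4d in 6 and Zscan4d above Zscan4b in 7. Because these rows share reads whose division was not tested, agreement between lines does not settle which copy is higher. Dppa2 was far above the copies at 1235 ± 283 per kb. Tcstv3 at 26.2 ± 18.6, Tcstv1 at 20.3 ± 9.45 and Zfp352 at 5.12 ± 2.55 per kb had lower means than every copy, and Tcstv3 exceeded Tcstv1 in 5 of 10 lines.

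**Figure D2:**
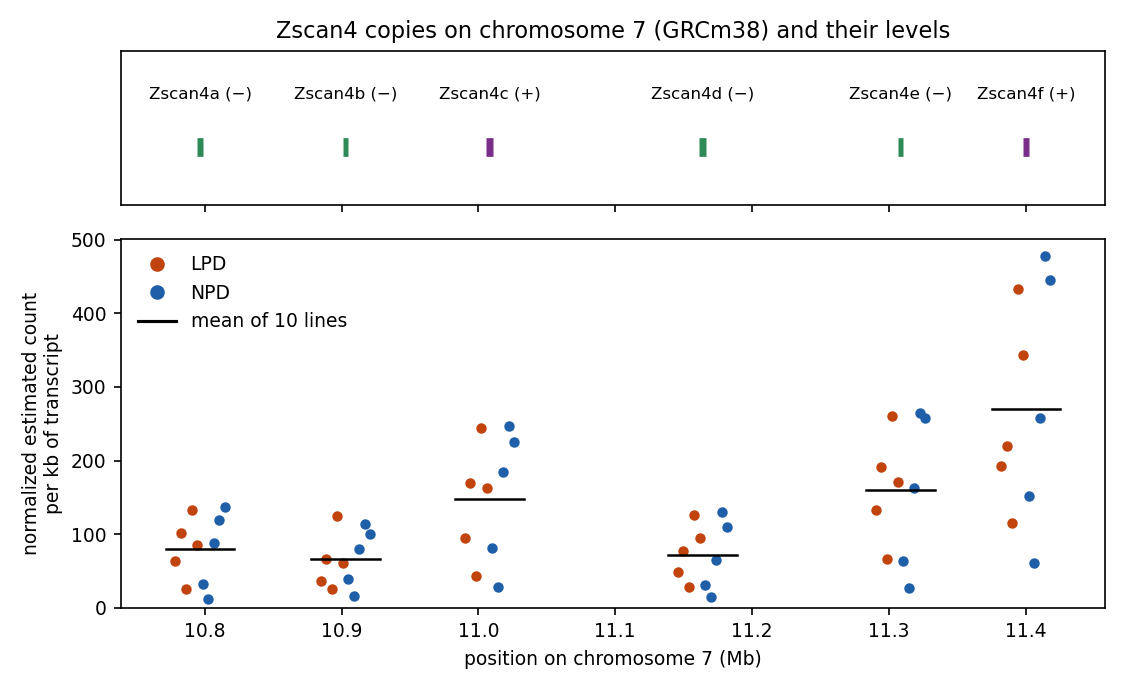
Position of the 6 Zscan4 copies on chromosome 7 (GRCm38, Mb; strand in brackets) above their normalized estimated counts per kb of transcript in each line, with the mean of 10 lines as a bar and points spread sideways for legibility. Zscan4f has the highest mean (270 per kb) and Zscan4b the lowest (66.2 per kb), and LPD and NPD points overlap in every copy.

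Tcstv1 and Tcstv3 lie on chromosome 13 (GRCm38), at chr13:119893388-119894785 on the minus strand and chr13:120316878-120318178 on the plus strand. They encode small proteins expressed at the 2-cell stage and have been linked to telomere length in ESCs. Tcstv3 values were 15.2, 17.3, 2.76, 33.5 and 15.8 in LPD 1, 4, 6, 20 and 40 and 7.03, 5.31, 24.9, 46.1 and 36.2 in NPD 8, 15, 21, 36 and 51. Tcstv1 values were 21.7, 30.1, 8.68, 22.0 and 41.1 in the LPD lines and 17.6, 8.73, 32.3, 40.6 and 36.7 in the NPD lines, in the same order. Both genes were low in LPD 6 and NPD 15 whatever the diet, and the lowest value of Tcstv3, in LPD 6, rests on 1.99 read equivalents. Of their 31-base words, 51% of those in Tcstv3 and 28.6% of those in Tcstv1 also occurred in other genes, so these rows can share reads as well. The same holds for Dppa2, at 33.8% (30.7% with Gm9788), and for Zfp352, at 21.5%.

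Zfp352, a zinc finger gene at chr4:90218820-90225702 (GRCm38, plus strand) transcribed at the 2-cell stage, was the least abundant member. Its values were 14.3, 8.01, 3.73, 15.2 and 10.3 in LPD 1, 4, 6, 20 and 40 and 7.98, 3.53, 16.2, 16.8 and 20.6 in NPD 8, 15, 21, 36 and 51. Again LPD 6 and NPD 15 were at the bottom of the range and NPD 51 at the top.

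Dppa2, at chr16:48303908-48319723 (GRCm38, plus strand), encodes a DNA-binding SAP domain protein present throughout ESC cultures rather than in rare cells. Its values were 2207, 2961, 2602, 4200 and 2956 in LPD 1, 4, 6, 20 and 40 and 2637, 2125, 3068, 3489 and 3981 in NPD 8, 15, 21, 36 and 51. The highest line was 1.98 times the lowest, a much narrower range than in the other members, yet NPD 15 was again the lowest line and LPD 20 and NPD 51 were the highest.

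No member passed the test between the diets. All 10 passed the filter of a mean of at least 10 and were tested with limma among 14354 genes, where 0 genes (0%) had an adjusted p under 0.1 and 721 (5.02%) an unadjusted p under 0.05, 408 (2.84%) higher and 313 (2.18%) lower in LPD. Of the members, 0 had an unadjusted p under 0.05, and the smallest limma adjusted p among them was 0.994. Their log2 differences, LPD minus NPD, ran from −0.37 in Tcstv3 to 0.40 in Zscan4e, with 5 above and 5 below 0 and a median of 0.00, against 0.00 over all genes tested. The split moved both ways with single lines. Without NPD 15 all 10 members lay below 0, with a median of −0.40, and without LPD 6 all 10 lay above 0, with a median of 0.29, each against 0.00 over all genes tested and with 0 of 10 at an unadjusted p under 0.05. With each of the other 8 lines left out, the median lay between these values. For Zscan4e the exact permutation p was 0.603, and for Tcstv3 it was 0.643. Dppa2 had the narrowest interval, a difference of −0.04 with a limma 95% interval of −0.44 to 0.37 (exact permutation p = 0.913).

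Within a diet the members other than Dppa2 were among the more variable genes of the table. The residual SD on the log2 scale was 1.09 for the Zscan4 sum, above 96.3% of the genes tested, 1.25 for Tcstv3 (above 97.5%), 0.84 for Tcstv1 (92.5%) and 0.83 for Zfp352 (92.4%). For Dppa2 it was 0.35, at the 62.8th percentile. The same lines recurred at both ends. LPD 6 and NPD 15 were among the 3 lowest lines for 10 of 10 members and NPD 8 for 8, while NPD 36 and NPD 51 were among the 3 highest for 10 of 10 and LPD 20 for 8.

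The other members rose and fell with the Zscan4 copies from line to line. Over the 10 lines, the log2 value of the Zscan4 sum was compared with 7 partners by permutation tests with Benjamini-Hochberg adjustment over the 7. Tcstv3 gave r = 0.911 (permutation p = 0.00034, adjusted 0.00238) and rho = 0.939 (permutation p = 0.00026, adjusted 0.00182). Tcstv1 gave r = 0.887 (permutation p = 0.00098, adjusted 0.00273) and rho = 0.818 (permutation p = 0.00548, adjusted 0.00959). For Zfp352, r was 0.880 (permutation p = 0.00118, adjusted 0.00273) and rho 0.867 (permutation p = 0.00201, adjusted 0.00469). For Dppa2, r was 0.851 (permutation p = 0.00156, adjusted 0.00273) and rho 0.891 (permutation p = 0.00111, adjusted 0.00388). Single lines departed from these relations, such as LPD 20, which had the highest Zscan4 sum of the LPD lines but a Tcstv1 value of 22.0, below the median of 26.1. With the diet means removed, r was 0.943 for Tcstv3, 0.900 for Tcstv1, 0.910 for Zfp352 and 0.862 for Dppa2.

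These relations differed in how far they rested on the lowest lines. Without NPD 15 and LPD 6, the lines farthest from the median of the Zscan4 sum, r over 8 lines was 0.938 for Tcstv3 (exact permutation p adjusted over 7 relations, 0.00573) and 0.850 for Dppa2 (adjusted exact permutation p = 0.0347). Tcstv3 and Dppa2 therefore followed the Zscan4 copies also among the remaining lines. For Tcstv1 it was 0.670 and for Zfp352 0.643 (adjusted exact permutation p = 0.156 for each), so the relations of Tcstv1 and Zfp352 no longer passed without those lines. Without NPD 15 alone, r was 0.962 for Tcstv3, 0.829 for Tcstv1, 0.815 for Zfp352 and 0.806 for Dppa2, and all 4 passed (adjusted exact permutation p of at most 0.0165).

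**Figure D3:**
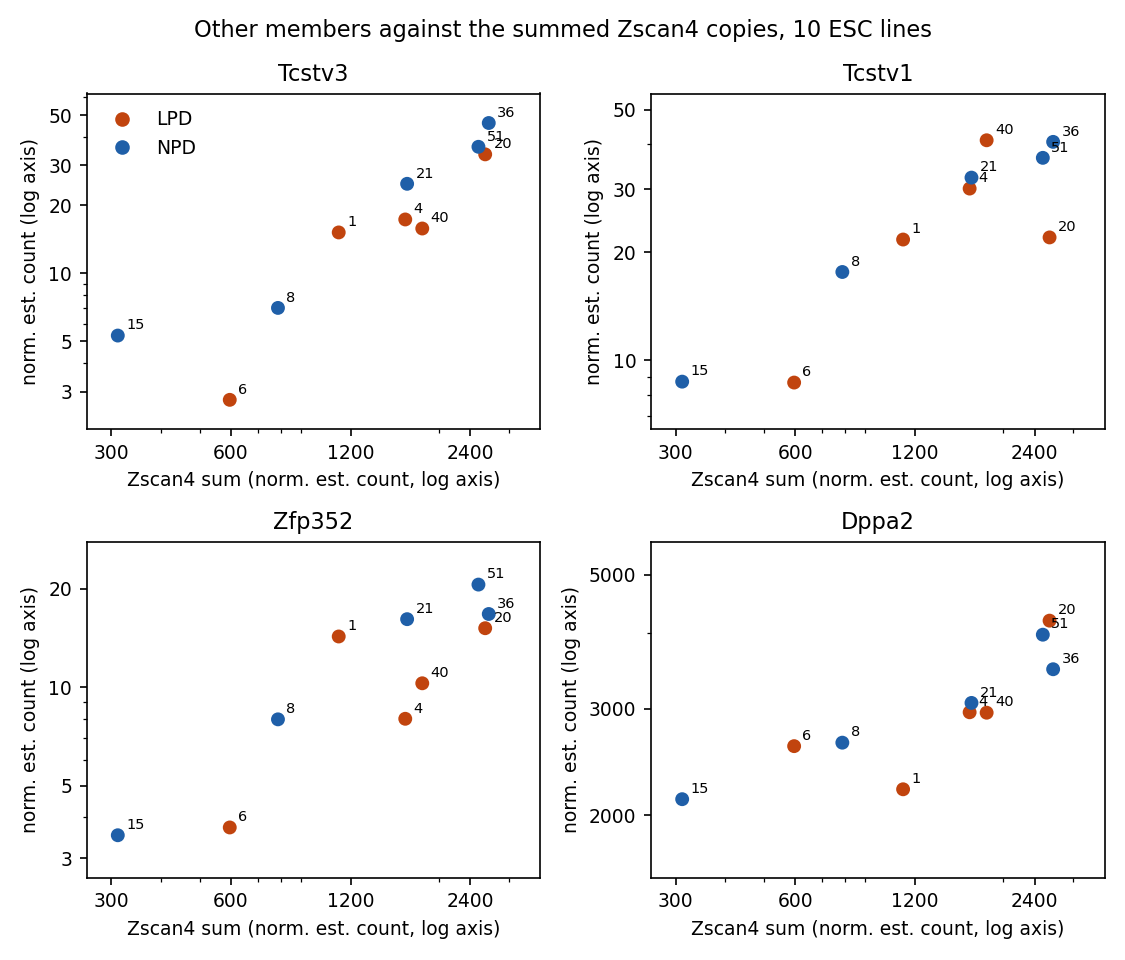
Normalized estimated counts of Tcstv3, Tcstv1, Zfp352 and Dppa2 (vertical) against the summed Zscan4 copies (horizontal) in the 10 ESC lines, both on log axes; numbers are line numbers and colours the diets. NPD 15 and LPD 6 are the leftmost lines of each panel, and r runs from 0.851 for Dppa2 to 0.911 for Tcstv3.

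No relation with depth was detected. The Zscan4 sum and the read equivalents of the lines gave r = −0.00847 (permutation p = 0.982, adjusted 0.982) and rho = 0.297 (permutation p = 0.405, adjusted 0.405). The shallowest line, LPD 4, had a Zscan4 sum of 1646, near the median of 1655.

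Upstream of Zscan4, the factors known to promote the state gave a mixed picture. Duxf3, the Dux gene itself, had values of 10.7, 12.9, 1.42, 5.50 and 11.4 in LPD 1, 4, 6, 20 and 40 and 7.84, 1.51, 8.18, 13.1 and 19.2 in NPD 8, 15, 21, 36 and 51. Its row is identical to that of another gene identifier without a symbol and it did not pass the filter. With the Zscan4 sum, Duxf3 gave r = 0.795 (permutation p = 0.00809, adjusted 0.0113) and rho = 0.648 (permutation p = 0.0488, adjusted 0.0569). Without NPD 15 and LPD 6 its r was 0.254 (adjusted exact permutation p = 0.626), so this relation rested on those lines, and without NPD 15 alone it was 0.659 (adjusted exact permutation p = 0.0653). Dppa4, the partner and chromosomal neighbour of Dppa2, ranged from 2210 to 3331 and gave r = 0.635 (permutation p = 0.0489, adjusted 0.0570) and rho = 0.661 (permutation p = 0.0441, adjusted 0.0569), which did not pass the adjustment. Without NPD 15 the r of Dppa4 was 0.527.

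Of the 8 promoting factors, 7 passed the filter and 0 had an unadjusted p under 0.05 between the diets, beside 5.02% of all genes tested. The median log2 difference of the 7 was −0.08. The 3 with the smallest p were Rara, a retinoic acid receptor (−0.19, SE 0.16, limma adjusted p = 0.994), Dppa3, a maternal factor that protects the early embryo's methylated DNA (−0.42, SE 0.44, limma adjusted p = 0.994), and Nelfa, a subunit of a transcription pausing complex (−0.10, SE 0.11, limma adjusted p = 0.994). Across the lines, 4 of the 7 had an r above 0.5 with the Zscan4 sum, namely Nelfa (0.836), Trp53 (0.727), Rara (0.718) and Dppa4 (0.635). Dppa3 (−0.883) was the 1 with an r below −0.5, with values from 379 in NPD 15 down to 50.6 in LPD 20. Beside these, 1888 (13.2%) of the 14344 genes tested outside the members had an r above 0.5 and 1841 an r below −0.5. Without NPD 15, r was 0.852 for Nelfa, 0.759 for Trp53, 0.651 for Rara and −0.751 for Dppa3. Of these r values, those of Nelfa, Trp53, Rara and Dppa3 are descriptions over 10 lines and carry no test.

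Genes known to restrain the state, such as histone methyltransferases, histone deacetylases, chromatin assembly factors and Polycomb subunits, were also measured. All 34 passed the filter, with 0 higher and 2 lower in LPD at an unadjusted p under 0.05, beside 2.84% and 2.18% of all genes tested. The 2 were Ehmt1 (−0.23, SE 0.10, limma adjusted p = 0.956) and Ehmt2 (−0.20, SE 0.09, limma adjusted p = 0.982), which together methylate histone H3 at lysine 9. Neither passed after adjustment, and the median over the list was −0.01. Across the lines, 10 of the 34 (29.4%) had an r above 0.5 with the Zscan4 sum and 1 an r below −0.5. Above 0.5 were 13.2% of the genes tested outside the members. Of 13 telomere factors tested, 0 were higher and 1 was lower at an unadjusted p under 0.05. This was Rtel1, a helicase that unwinds telomere loops (−0.52, SE 0.19, limma adjusted p = 0.852). Terf1, which binds telomeric repeats, had LPD values of 1463 to 1634 and NPD values of 1378 to 1452. Its difference was 0.14 (exact permutation p = 0.00794, the smallest possible, limma unadjusted p = 0.0732, limma adjusted p = 0.994). How many of all genes tested reached this exact permutation p was not counted.

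A wider list of 65 other genes known from the 2-cell stage was taken as companions, among them the Tdpoz, Usp17l, Pramef and Obox families and many numbered gene models. The table listed 55 of them in 54 distinct rows, of which 40 passed the filter. Summed, the 40 gave 2450 in LPD 1, 3124 in LPD 4, 1431 in LPD 6, 3921 in LPD 20 and 3078 in LPD 40, and 1639 in NPD 8, 1171 in NPD 15, 3507 in NPD 21, 4523 in NPD 36 and 4554 in NPD 51. The 3 lowest and the 3 highest lines were those of the Zscan4 sum. The median r of a companion gene with the Zscan4 sum was 0.909, and 36 of 40 (90.0%) had an r above 0.5, beside a median of 0.00 and 1888 (13.2%) of the 14344 genes tested outside the members. Without NPD 15 the median r was 0.852 and 37 of 40 were above 0.5, beside 1901 (13.3%) of those genes. Between the diets, 0 of the 40 companion genes were higher and 1 was lower at an unadjusted p under 0.05, beside 2.84% and 2.18% of all genes tested, and the median log2 difference was 0.06. Without NPD 15 the median was −0.41, with 38 of the 42 genes then tested below 0, and with each other line left out it ran from −0.18 (without NPD 8) to 0.34 (without NPD 51), so neither its sign nor its size was stable. The gene was Zfp750 (−0.59, SE 0.24, exact permutation p = 0.00794, limma adjusted p = 0.952), an epidermal differentiation factor, with LPD values of 41.8 to 78.7 and NPD values of 79.5 to 150. Pramef8 (0.38, SE 0.19, limma adjusted p = 0.994) and Duxbl1 (−0.70, SE 0.37, limma adjusted p = 0.994) had the next smallest p.

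The genes whose pattern was most like that of the Zscan4 sum were picked by r over the 10 lines among all tested genes outside the members, and carry no test. The processed pseudogene Gm21939 on chromosome 12 came first (r = 0.994, rho = 0.952), with values from 27.3 in NPD 15 to 233 in LPD 20. Next were Zscan4-ps2 on chromosome 7 (r = 0.992, rho = 0.927), a further Zscan4 copy that shares 81.6% of the 31-base words of Zscan4c, and Gm6763 on chromosome 10 (r = 0.985, rho = 0.976), whose row is identical to that of Gm8764. Gm5662 on chromosome 12 (r = 0.985, rho = 0.927) and Gm21312 on chromosome 10 (r = 0.984, rho = 0.976), whose row is identical to those of Gm20765 and Gm21304, completed the 5. Without NPD 15, r was 0.991 for Gm21939 and Zscan4-ps2, 0.976 for Gm6763, 0.975 for Gm21312 and 0.97 for Gm5662. Gm6763, Gm5662 and Gm20765 belong to the companion list.

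Most unlike the Zscan4 sum were Pls3, Pramef12 and Ccn5. Pls3, an actin-bundling plastin on the X chromosome, had r = −0.979 and rho = −0.927 and ranged from 457 in NPD 51 to 915 in NPD 15. Pramef12, of a germline-expressed family on chromosome 4, had r = −0.962 and rho = −0.927 and values from 147 in NPD 51 to 378 in NPD 15. Ccn5, a secreted matrix-associated protein of fibroblasts and smooth muscle, had r = −0.957 and rho = −0.903, with values of 289 in NPD 15, 47.7 in LPD 6, 14.1 in NPD 8 and at most 8.73 in the others. Without NPD 15, the line with raised X-linked genes, r was −0.963 for Pls3, −0.937 for Pramef12 and −0.918 for Ccn5.

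Markers of other cell types also differed along the same lines. Fibroblasts were the feeder cells when the lines were derived, and whether any remained in the later cultures without feeders was not tested. All 8 fibroblast markers were listed. Their summed values were 388 in LPD 1, 622 in LPD 4, 3251 in LPD 6, 324 in LPD 20 and 307 in LPD 40, and 2059 in NPD 8, 5484 in NPD 15, 394 in NPD 21, 1079 in NPD 36 and 433 in NPD 51. Of the 8 markers, 6 passed the filter and 0 had an unadjusted p under 0.05 between the diets, beside 5.02% of all genes tested. The 6 had a median log2 difference of −0.99, with 1 above and 5 below 0. The 3 lines with the highest fibroblast sum were the 3 lines with the lowest Zscan4 sum. The most abundant was Col1a1, a fibrillar collagen chain, at 2709 in NPD 15, 1704 in LPD 6 and 1016 in NPD 8 and from 131 to 534 elsewhere. Col1a2, another collagen chain, was 1442, 1121 and 754 in the same 3 lines and from 46.6 to 358 elsewhere, and Col3a1 was 859, 174 and 135 and from 6.86 to 64.6 elsewhere. The surface protein gene Thy1 was 216 in NPD 15, 135 in LPD 6 and 80.3 in NPD 8, within the 39.1 to 115 of the others, and Pdgfrb, a growth factor receptor, was 94.1, 75.2 and 57 in these 3 and at most 39.6 elsewhere. The other 3 markers were each listed at 0 in some lines. Lum was 111 in NPD 15, 1.39 in LPD 6, 0.721 in NPD 36 and 0 in the other 7, and Dcn was 33.5 in NPD 15, 15.7 in LPD 6 and 0 in NPD 8. Postn was 25.6 in LPD 6, 19 in NPD 15 and 16.1 in NPD 8 and at most 3.53 elsewhere.

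Primitive endoderm markers went the other way. Primitive endoderm is the extraembryonic layer that forms beside the epiblast, and ESC cultures can hold cells expressing its genes. All 7 markers were listed, and their summed values were 4312, 2316, 645, 2098 and 3692 in LPD 1, 4, 6, 20 and 40 and 1145, 448, 2274, 4941 and 2866 in NPD 8, 15, 21, 36 and 51. Dab2, an endocytic adaptor, was the most abundant, from 103 in NPD 15 to 2165 in NPD 36, and Foxa2 was 0 in NPD 15. Again LPD 6, NPD 8 and NPD 15 were the lowest lines.

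The 7 trophectoderm markers, of the outer layer of the blastocyst, summed to 4580, 4815, 10338, 3301 and 3602 in the LPD lines and 6103, 6224, 3830, 3811 and 3071 in the NPD lines, in the same order. LPD 6 stood highest, with 4577 for the keratin gene Krt8. The most abundant marker, Tfap2c, is also expressed in other early cells and reached 3663 in NPD 15. The defining markers Cdx2 (5.34 to 97.9) and Elf5 (0.726 to 6.18) were low throughout, whereas Eomes was 245 to 412 and Gata3 28.4 to 265. Cdx2 was highest in LPD 20 and Eomes in NPD 21, lines whose summed markers lay below the median of 4205, so the markers did not all follow their sum. Of the 6 that passed the filter, 4 had an r below −0.5 with the Zscan4 sum and 0 an r above 0.5.

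Relations of these 3 sums with the Zscan4 sum were computed after the values had been seen, with adjustment over the 3. Fibroblast markers gave r = −0.831 (permutation p = 0.00379, adjusted 0.00408) and rho = −0.600 (permutation p = 0.0727, adjusted 0.0727). Primitive endoderm markers gave r = 0.850 (permutation p = 0.0028, adjusted 0.00408) and rho = 0.673 (permutation p = 0.0385, adjusted 0.0577). Trophectoderm markers gave r = −0.823 (permutation p = 0.00408, adjusted 0.00408) and rho = −0.891 (permutation p = 0.00121, adjusted 0.00363). The first 2 rested on the low lines, since without NPD 15 and LPD 6 r was −0.456 for fibroblast and 0.479 for primitive endoderm markers, against −0.886 for trophectoderm markers. The trophectoderm sum is made up mostly of Tfap2c, also expressed in other early cells, and of the keratin genes Krt8 and Krt18. The defining markers Cdx2 and Elf5 were low throughout, so this relation describes the summed genes rather than trophectoderm cells. Without NPD 15 alone, r was −0.701 for fibroblast, 0.728 for primitive endoderm and −0.918 for trophectoderm markers. Within the 7 lines outside the 3 highest in fibroblast markers, which are also the 7 highest in the Zscan4 sum and so span a narrower range, r with the Zscan4 sum was 0.292 for fibroblast, −0.132 for primitive endoderm and −0.753 for trophectoderm markers. Over the same 7 lines it was 0.948 for Dppa2, 0.869 for Tcstv3, 0.740 for Dppa4, 0.424 for Zfp352, 0.398 for Tcstv1 and 0.0474 for Duxf3. The part of the other cell types in the pattern of the 2-cell-like genes was not tested.

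**Figure D4:**
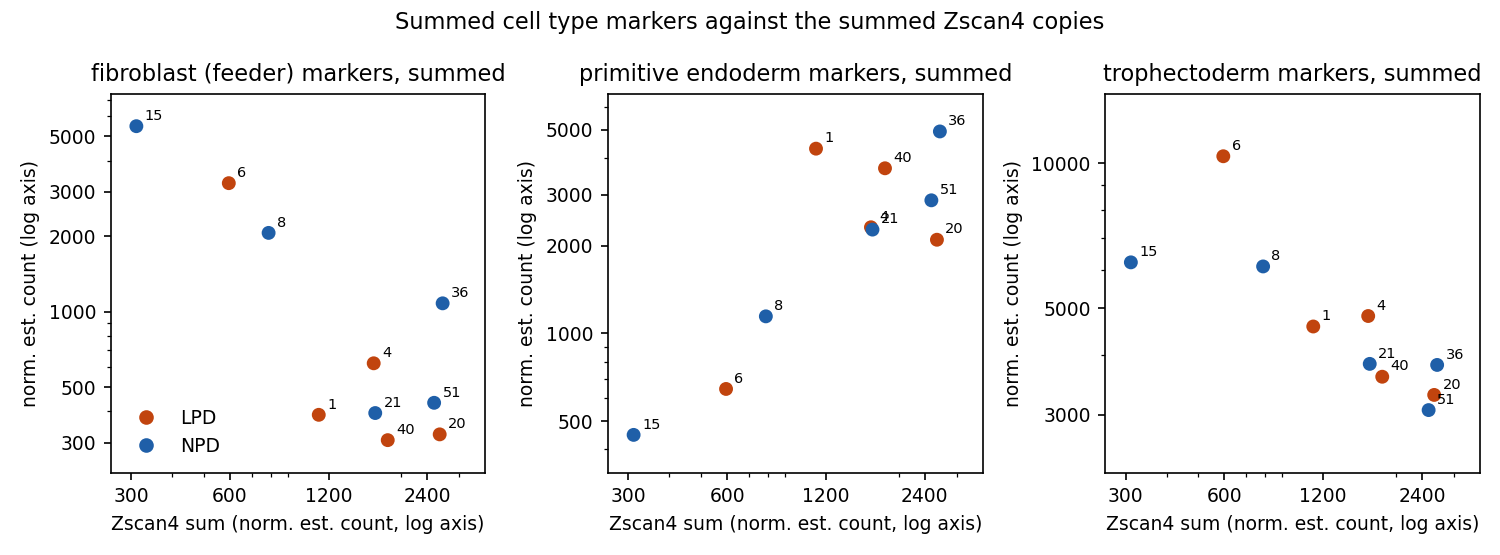
Summed fibroblast, primitive endoderm and trophectoderm markers (vertical) against the summed Zscan4 copies (horizontal) in the 10 ESC lines, as normalized estimated counts on log axes; numbers are line numbers and colours the diets. NPD 15, LPD 6 and NPD 8 lie apart at the left of the first 2 panels, with fibroblast sums of 5484, 3251 and 2059.

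The diet comparison was repeated with the log2 fibroblast sum as a covariate, again after the values had been seen. The covariate is highest in the 3 lines lowest in the Zscan4 sum, of which 2 are NPD and 1 is LPD. In this fit the Zscan4 sum differed by −0.40 (limma unadjusted p = 0.241), all 10 members lay below 0 in LPD, and 1 of 10, Tcstv3 (−1.04, limma unadjusted p = 0.0401), had an unadjusted p under 0.05. Of the 40 companion genes, 8 were then lower and 1 was higher at that level, beside 2.69% of all genes lower and 3.96% higher. No member or companion gene reached an adjusted limma p under 0.1 in this fit. The companion genes move together from line to line, so these counts are not of independent genes. All 10 members also lay below 0 without NPD 15 and with no covariate, where the Zscan4 sum differed by −0.31 (exact permutation p = 0.579).

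The Zscan4 copies also share sequence before their gene starts. RefSeq promoter windows (GRCm38.p6, 250 bases before to 50 after a gene start) were given for 5 of the 10 members: Zscan4b, Zscan4c, Zscan4d, Zscan4f and Zfp352. The stretches that end at the TATAAA match are shown for the 4 Zscan4 copies, since these genes move together and their upstream sequence is nearly the same. They lie at chr7:10905076-10905245 (Zscan4b, minus strand), chr7:11005527-11005696 (Zscan4c, plus strand), chr7:11166208-11166377 (Zscan4d, minus strand) and chr7:11397720-11397889 (Zscan4f, plus strand), each 170 bases long, and capitals mark TATAAA.
Zscan4b: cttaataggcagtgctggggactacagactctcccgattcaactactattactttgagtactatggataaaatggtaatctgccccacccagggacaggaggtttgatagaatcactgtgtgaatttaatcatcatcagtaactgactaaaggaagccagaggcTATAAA
Zscan4c: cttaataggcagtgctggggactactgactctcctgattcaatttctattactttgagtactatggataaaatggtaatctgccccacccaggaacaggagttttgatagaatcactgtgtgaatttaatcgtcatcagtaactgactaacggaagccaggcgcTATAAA
Zscan4d: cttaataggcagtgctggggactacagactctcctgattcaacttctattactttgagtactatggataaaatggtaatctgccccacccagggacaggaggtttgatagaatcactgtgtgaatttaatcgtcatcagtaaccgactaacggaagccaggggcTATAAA
Zscan4f: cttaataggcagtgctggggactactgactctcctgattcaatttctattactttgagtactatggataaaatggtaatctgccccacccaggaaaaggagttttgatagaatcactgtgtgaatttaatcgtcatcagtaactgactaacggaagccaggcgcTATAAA
Aligned without gaps, Zscan4c and Zscan4f were identical at 169 of 170 bases (99.4%), and the least alike pair, Zscan4b and Zscan4f, at 159 (93.5%). TATAAA, searched on both strands and added after the sequences had been seen, occurred in 13.6% of all 32851 windows and did not occur in that of Zfp352. Its first base lay 31 bases before the RefSeq start in Zscan4b and Zscan4f, 54 in Zscan4c and 65 in Zscan4d. The core of the DUX motif, GATTNAATC, which 0.268% of all windows hold on either strand, did not occur in the windows of the 5 members, and occurred once in that of Duxf3. The Zscan4 motif TGCACAC, which 4.40% of all windows hold on either strand, occurred in none of them. A lack of these letters in a window of this length says nothing about where the factors bind.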

How the data were processed

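RNA sequencing of 10 ESC lines was analysed from a table of 20206 genes. Per the labels and the study's methods, the authors trimmed reads with cutadapt, quantified transcripts with Salmon on GRCm38 (mm10), and tested them with sleuth 0.30.0. The deposited signal values are estimated counts divided by DESeq2 size factors, and are not whole. Of the genes, 19891 matched GENCODE M21 (GRCm38) and 315 did not. Values were tested as log2(value + 1) with limma 3.58.1 (R 4.3.3; mean-variance trend, 5 LPD against 5 NPD lines, no covariate) for 14354 genes with a mean of at least 10, with Benjamini-Hochberg adjustment and calls at an adjusted p under 0.1. The limma step was tested on simulated data. Single genes and the summed Zscan4 copies were compared by exact permutation, and relations across the 10 lines by 100000 permutations. Depth ran from 5842833 to 24193841 read equivalents, and intervals cover the spread between lines. Named genes were the members, the 3 genes of the promoting and companion lists with the smallest p, the 5 genes most like and the 3 most unlike the Zscan4 sum, and Pou5f1, Nanog and Sox2. Trp53 and genes named from the restraining, telomere and marker lists were chosen after their values were seen. Members and lists were chosen with earlier results of these data known. Alternatives covered the pseudocount, filter, scaling, weights, depth, and each line left out.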

Additional observations from a re-analysis of the deposited data

Results flagged for a closer look

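Within each diet, a value was picked out when its gap to the nearest other line, divided by the range of the 5 lines, was above Dixon's 95% critical value for 5 samples, which chance exceeds in about 1 of 20 groups. Of 42 groups examined (the Zscan4 sum, the members, Dppa3, Dppa4, Duxf3, summed markers, depth and sex-linked genes, each in both diets), 3 did so, and none of these was a member. On the log2 scale, Ddx3y in NPD 15 (3.12, against 10.12 to 10.41 in the other NPD lines) had a ratio of 0.959, and the median deviation of X-linked genes in the same line (0.49, against −0.06 to −0.02) had a ratio of 0.937. Ddx3y in LPD 4 (7.45, against 10.18 to 10.55 in the other LPD lines) had a ratio of 0.883. NPD 15 was also the lowest line for 8 of 10 members, and the part of its sex-linked expression in these values was not tested.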

How the results depend on the processing

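The limma count of 0 genes at an adjusted p under 0.1 between the diets became 1 with array weights and 1 without the 3 lines highest in fibroblast markers (a setting chosen after seeing the data; these 3, 2 NPD and 1 LPD, are also the lowest in the Zscan4 sum, so no direction is read from it), and ran from 0 to 40 with single lines left out, 40 without LPD 40. Genes at an unadjusted p under 0.05 stayed within 1.5 times of 721 in each setting. Rescaling each line to the same total moved the share of these that were higher in LPD from 56.6% to 40.2%, leaving out the filter to 46.2% and quantile normalization to 50.4%. Without LPD 6 it was 47.8%, so leaving out that line alone turned the majority.

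The difference in the Zscan4 sum passed in no setting (smallest p 0.241). It turned from 0.19 to −0.12 with array weights, −0.40 with fibroblast markers as a covariate and −0.38 without the 3 lines, and ran from −0.31 (without NPD 15) to 0.49 with single lines left out. The counts of single members past 0.05 (0 of 10) and of companion genes past 0.05 (1 of 40) became 1 and 9 with the fibroblast covariate, beside 6.65% of all genes. The companion count was 10 of 44 without the 3 lines (4.83% of all genes), 2 of 40 with array weights (5.83%), 0 of 40 with depth as a covariate (4.19%), 0 of 8 with a mean of at least 100 (5.48%), and 0 to 2 of 37 to 43 with single lines left out (3.83% to 6.28%). The mean of at least 100 left out Zfp352, Tcstv1 and Tcstv3.

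Directions of single members, all small beside their spread, turned often. With the fibroblast covariate, differences were −0.31 in Zscan4a, −0.59 in Zscan4c, −0.23 in Zscan4d, −0.20 in Zscan4e and −0.42 in Zscan4f, and without the 3 lines they were −0.28, −0.45, −0.25, −0.28 and −0.43 in the same genes. With array weights, Zscan4c was −0.25 and Zscan4f −0.21. With depth as a covariate, Zscan4b was 0.0102 and Zfp352 0.0892. With single lines left out, differences ran from −0.20 to 0.72 in Zscan4a, −0.51 to 0.19 in Zscan4b, −0.48 to 0.41 in Zscan4c, −0.13 to 0.65 in Zscan4d, −0.12 to 0.71 in Zscan4e, −0.36 to 0.38 in Zscan4f, −0.59 to 0.0486 in Zfp352, −0.44 to 0.21 in Tcstv1, −0.76 to 0.12 in Tcstv3 and −0.17 to 0.0677 in Dppa2. The cause of these turns was not tested.

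Of 7 relations with the Zscan4 sum, 5 passed by r and 4 by rho, where Duxf3 had an adjusted permutation p of 0.0569. Without NPD 15, a setting chosen after seeing the data, 4 passed by r. Without the 2 lines farthest from the median, 2 passed by r, with r of 0.643 for Zfp352, 0.670 for Tcstv1, 0.254 for Duxf3 and 0.0477 for depth, where 2 fewer lines also lower the power. Low depth limits Zfp352, Tcstv3 and Duxf3, which rest on a few reads in some lines. No paired analysis was possible because the LPD and NPD lines share no replicate number.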
